A study of Mus musculus with 6 samples.

Results

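The genes described here encode the chaperones and proteases that fold, repair and remove proteins inside mitochondria, and they are the classical readout of the mitochondrial unfolded protein response. The 10 genes are the matrix chaperones Hspd1, Hspe1, Hspa9 and Trap1, the matrix proteases Lonp1, Clpp and Clpx, and the inner membrane proteases Yme1l1, Afg3l2 and Spg7. Every probe set annotated to exactly 1 of them was taken, which gave 24 of the 45037 probe sets tested, and all 10 genes had at least 1. A probe set is a group of short oligonucleotides on the array that together report 1 transcript. All 24 were carried through the comparison with no filter on low values.

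Total RNA of whole liver from 6 mice was hybridized to Affymetrix arrays, 1 per animal. The 3 mutants were B6.Alb/cre,Pdss2loxP/loxP mice, and the 3 controls had the genotype B6.Pdss2loxP/loxP. In the mutants, aged 176, 178 and 224 days (mutants 1 to 3), cre recombinase under the albumin promoter deletes a floxed part of Pdss2, a gene of coenzyme Q (CoQ) side chain synthesis, in hepatocytes. The controls, aged 209, 213 and 140 days (controls 1 to 3), carry the same floxed alleles without cre. All animals were males on a C57BL/6 (B6) background, had food withdrawn 3 hours before death, and were caged apart by genotype, so cage and genotype cannot be told apart. The arrays read whole liver, in which cells other than hepatocytes keep Pdss2, and a smaller number of cells of one type cannot be told apart from less RNA per cell.

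Most mitochondrial proteins are made in the cytosol, are threaded unfolded into the matrix and need chaperones to reach their final shape, while proteases clear those that fail. When unfolded or unassembled proteins accumulate, the mitochondrial unfolded protein response raises nuclear transcripts of these chaperones and proteases. In mammals the factors ATF5, ATF4 and CHOP (the product of Ddit3) have been tied to it. Hepatocytes are rich in mitochondria, and a block in the respiratory chain is one of the stresses under which this response is looked for, which is the question the comparison addresses.

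Hspd1 and Hspe1 are shown first because they share 1 promoter and behaved alike on these arrays. They lie head to head on mouse chromosome 1, and the stretch between their transcription starts is printed here on the strand of Hspe1, from the RefSeq annotation of build GRCm38.p6 at chr1:55087933-55088147 (215 bases, 70.2% G or C). The Hspd1 start at position 55087932 lies to its left and the Hspe1 start at 55088148 to its right, and a further annotated start of Hspd1 lies beyond the Hspe1 start. Capitals mark heat shock elements, the sites of heat shock factors, searched on both strands as the 3 alternating units GAA, TTC and GAA with 2 bases between neighbours.
Hspd1-Hspe1 divergent promoter: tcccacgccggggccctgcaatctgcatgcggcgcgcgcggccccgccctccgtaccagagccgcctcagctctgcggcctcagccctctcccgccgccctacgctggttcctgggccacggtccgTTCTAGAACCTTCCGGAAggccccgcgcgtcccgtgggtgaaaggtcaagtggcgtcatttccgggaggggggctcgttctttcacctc
The capitals join 2 overlapping matches into 18 bases that begin 127 bases from the Hspd1 start and end 72 bases from the Hspe1 start. This motif was present in 198 of 32851 RefSeq promoter windows of 300 bases in the mouse (0.603%). Windows were at hand for 8 of the 10 genes (9 windows), and the 2 that held the motif cover this same stretch. The composite element of ATF4 and C/EBP proteins, searched as TGATGCAAT on both strands, was found in none of the 9 windows and in 0.192% of all windows. The same held for the C/EBP site TTGCAAT, which 2.22% of all windows contained. Only these exact letters were searched, so variants of either site were not counted. The printed stretch holds CTGCAAT, which differs from TTGCAAT in its first base. A match is a description of the letters and not evidence of binding.

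Levels are log2 intensities, and each difference is the mutant mean minus the control mean of them. The 179 probe sets of respiratory chain and ATP synthase subunits, picked by symbol, had a median difference of -0.62 here. Of them 130 were negative, whereas 65.2% of all probe sets were positive. By contrast, limma called 4 of the 179 higher and 1 lower (1.25% and 0.746% of all probe sets). The paper describes the direction opposite to that median for oxidative phosphorylation on the same arrays. It used gene set enrichment on a KEGG pathway with genes ranked by signal-to-noise, so measure and gene list both differ. Every sign below holds for the labels as given.

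Over the whole table, limma called 561 probe sets higher (1.25%) and 336 lower (0.746%) in mutants with the adjusted p held under 0.05, and the median difference of all probe sets was 0.17 on the log2 scale. With each array centred on its median that shift was 0.01, and the split of 561 higher and 336 lower became 150 and 150. Leaving out single mice moved these counts widely, up to 1289 higher (2.86%) and 2551 lower (5.66%) without mutant 1, down to 0 and 0 without mutant 2, mutant 3, control 2 or control 3 and to 1 and 2 without control 1. Pdss2 itself is read by 3 probe sets of unknown place relative to the deleted part. The brightest had 6.94, 6.88 and 7.05 in mutants 1 to 3, against 7.46, 7.47 and 7.56 in controls 1 to 3 (difference -0.54, adjusted p = 0.118 from limma), all mutants being below all controls, and the others differed by 0.40 and 0.35 with overlap of the groups, so the array does not check the deletion. Marker sums below use the brightest probe set of each gene. By that probe set, the 7 hepatocyte marker genes on the array all lay at or above the 99.1 percentile of mean signal, with no value at 0. Dimmer probe sets of these genes reached down to the 1.3 percentile. The summed linear intensity of the 7 brightest was 55957 to 70619 in mutants and 69914 to 71879 in controls, with mutant 1 alone among the control values. None of all 18 probe sets of the 7 genes passed the test. Of the 18, 15 had a negative difference and 3 a positive one, whereas 65.2% of all probe sets had a positive one. The summed intensity of 6 sinusoidal endothelial markers was 2974 to 5178 in mutants and 1540 to 2644 in controls, with 2 of 8 probe sets higher in limma (1.25% of all probe sets). These were Stab1 (1.39) and Stab2 (1.82). Clec4g, Kdr and Pecam1 overlapped between the groups, and the probe sets of Lyve1 differed by 0.69 and -0.17. That of 5 cholangiocyte markers was 363 to 463 in mutants and 264 to 292 in controls, with 0 of 9 called. Before adjustment 4 of the 9 were higher at p under 0.05 in limma (15.7% of all probe sets). Kupffer cell markers summed to 846 to 1172 in mutants and 515 to 825 in controls, and stellate cell, lymphocyte and blood markers overlapped between the groups, with none of the probe sets of these lists called. Of the Kupffer genes, Clec4f (1.17) and 1 probe set of Marco (0.70) had all mutants above all controls, as did 21.2% of all probe sets. Adgre1, Cd5l, Vsig4 and Timd4 (-0.27) overlapped, so these sums do not stand for every marker. The part of these cell types in the results was not tested.

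Of the 24 probe sets of mitochondrial chaperones and proteases, limma called 1 higher and 0 lower in mutants (1.25% and 0.746% of all probe sets were so called). Before adjustment for the number of tests, 1 was higher (4.17%) and 5 were lower (20.8%) at p under 0.05, against 15.7% and 9.54% of all probe sets. Their median difference was -0.23, while that of all probe sets was 0.17. Of the members 18 had a negative difference and 6 a positive one, whereas 65.2% of all probe sets had a positive one. All 3 mutants lay below all 3 controls on 5 member probe sets (20.8%, against 10.7% of all probe sets) and above them on 2 (8.33%, against 21.2% of all). The upper bound of the 95% interval of the difference was below 1, a doubling, for 20 of the 24 probe sets. The exceptions were 2 probe sets of Hspa9 and 1 each of Clpx and Spg7.

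**Figure D1:**
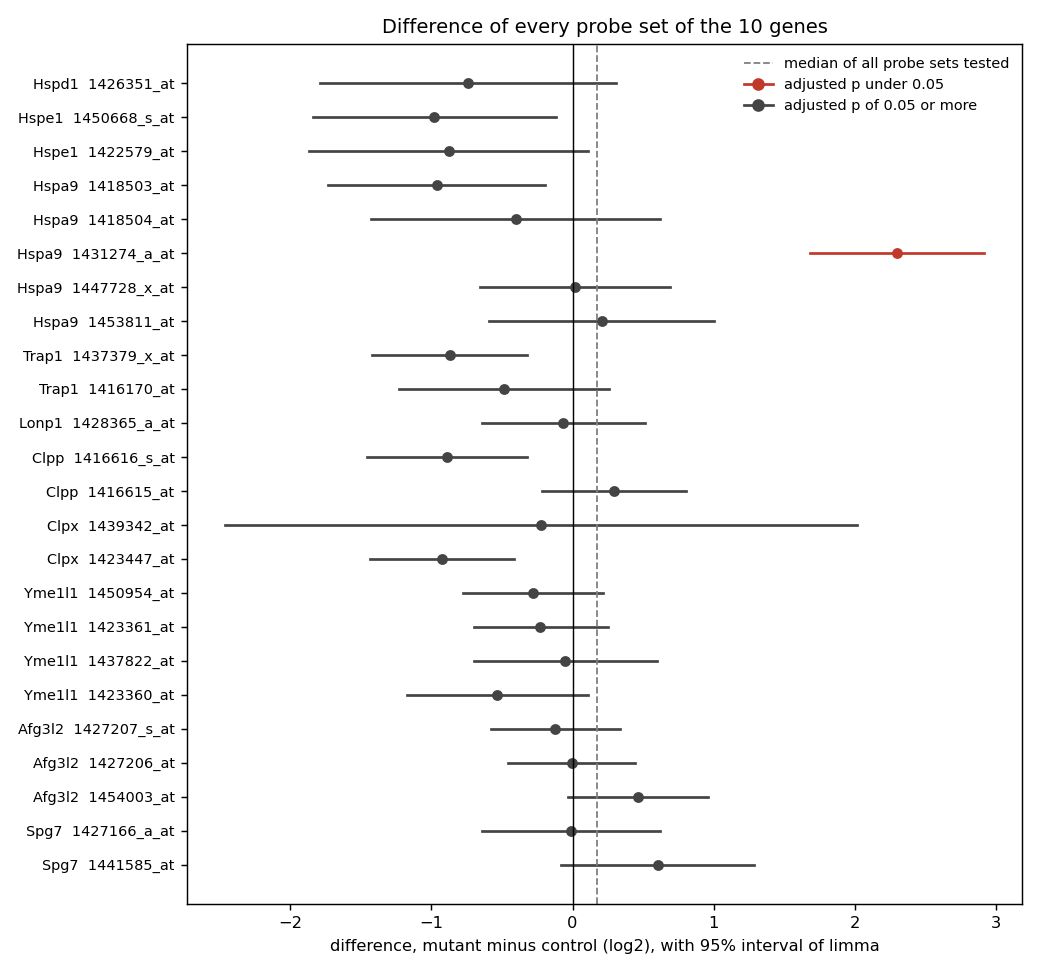
Difference between mutants and controls (horizontal axis, log2, mutant minus control) for each of the 24 probe sets (vertical axis), as points with the 95% interval from limma. The dashed line is the median of all probe sets tested, 0.17. Hspa9 probe set 1431274_a_at, at 2.30, is the single one past the adjusted p (red), and 18 intervals cover 0.

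The chaperonin genes read lower in mutants 2 and 3 and close to control level in mutant 1. Hspd1 encodes HSP60, the subunit of the barrel in which matrix proteins fold, and its 1 probe set (1426351_at) read 10.80, 9.13 and 9.08 in mutants 1 to 3, against 10.23, 10.31 and 10.69 in controls 1 to 3. Mutant 1 was thus the highest of the 6 arrays and mutants 2 and 3 the lowest, by more than 1 below every control. The difference was -0.74 (standard error 0.45, 95% interval -1.79 to 0.31, n = 3 per group, adjusted p = 0.348 from limma), which puts mutants at 59.7% of the control level. Hspe1 encodes HSP10, the lid of the barrel. Its brighter probe set (1450668_s_at) read 10.25, 9.33 and 8.70 in mutants 1 to 3, against 10.23, 10.45 and 10.54 in controls 1 to 3, with a difference of -0.98 (standard error 0.37, adjusted p = 0.154 from limma). Its dimmer one (1422579_at) read 7.53, 5.91 and 6.02 in mutants 1 to 3, against 7.12, 7.38 and 7.60 in controls 1 to 3, with a difference of -0.88 (adjusted p = 0.243 from limma). On both probe sets mutant 1 lay within the control range and mutants 2 and 3 lay below it. The probe sets of Hspe1 differed from each other by as much in mutants as in controls (2.94 and 3.04, exact two-sided permutation test, p = 0.8). Both genes have many processed pseudogenes in the mouse, and a suffix _s_at marks probes shared by several transcripts, so the part of such copies in these signals cannot be told apart.

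Hspa9 gave the one called rise, and it gave it on 1 of 5 probe sets. Hspa9 encodes mortalin, the mitochondrial HSP70 that draws proteins through the import channel and hands them on for folding. Probe set 1431274_a_at read 9.50, 8.94 and 9.37 in mutants 1 to 3, against 6.57, 7.35 and 6.98 in controls 1 to 3, so that all mutants lay above all controls by more than 1.5. The rise was 2.30 (standard error 0.27, 95% interval 1.68 to 2.92, n = 3 per group, adjusted p = 0.0267 from limma), which puts mutants at 493% of the control level. The call was lost without mutant 2, mutant 3 or any 1 control (adjusted p from 0.0685 to 0.15), with differences of 2.10 to 2.50 throughout. The brightest probe set over all 6 arrays, 1418503_at, went the other way and read 8.84, 7.67 and 7.66 in mutants 1 to 3, against 8.94, 9.02 and 9.10 in controls 1 to 3 (difference -0.96, adjusted p = 0.128 from limma), all mutants being below all controls. On 1418504_at, from the same source sequence, the values were 9.27, 7.54 and 7.76 in mutants 1 to 3, against 8.39, 8.50 and 8.89 in controls 1 to 3 (difference -0.40, adjusted p = 0.615). Mutant 1 was the highest array there and mutants 2 and 3 the lowest. The dimmer probe sets 1447728_x_at and 1453811_at differed by 0.02 and 0.21 with overlap of the groups, although 1453811_at derives from the same expressed sequence tag as 1431274_a_at.

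Within each array, the signal of 1418503_at minus that of 1431274_a_at was -0.66, -1.26 and -1.71 in mutants 1 to 3, against 2.37, 1.66 and 2.13 in controls 1 to 3. The 2 probe sets therefore changed unequally, by -3.26 between the groups, with no overlap (exact two-sided permutation test, p = 0.1, the smallest that 3 mice against 3 allow). The suffix _a_at marks a probe set that reads several transcripts of 1 gene. Which transcripts of Hspa9 each probe set reads was not analysed here. Averaged over its 5 probe sets Hspa9 differed by 0.23 (adjusted p = 0.518 from limma).

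Trap1, the HSP90 of mitochondria, read lower in mutants on both of its probe sets without passing the test. On 1437379_x_at it read 8.87, 8.71 and 8.21 in mutants 1 to 3, against 9.29, 9.46 and 9.66 in controls 1 to 3, with all mutants below all controls (difference -0.87, 95% interval -1.42 to -0.32, adjusted p = 0.0816 from limma). On 1416170_at it read 8.89, 8.62 and 7.83 in mutants 1 to 3, against 8.65, 8.81 and 9.32 in controls 1 to 3 (difference -0.48, adjusted p = 0.39 from limma). Mutants 2 and 3 lay below the control range there. On both Trap1 probe sets mutant 2 stood nearer to mutant 1 than to mutant 3. The difference on 1416170_at was -0.18 without mutant 3 and -0.29 without control 3.

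**Figure D2:**
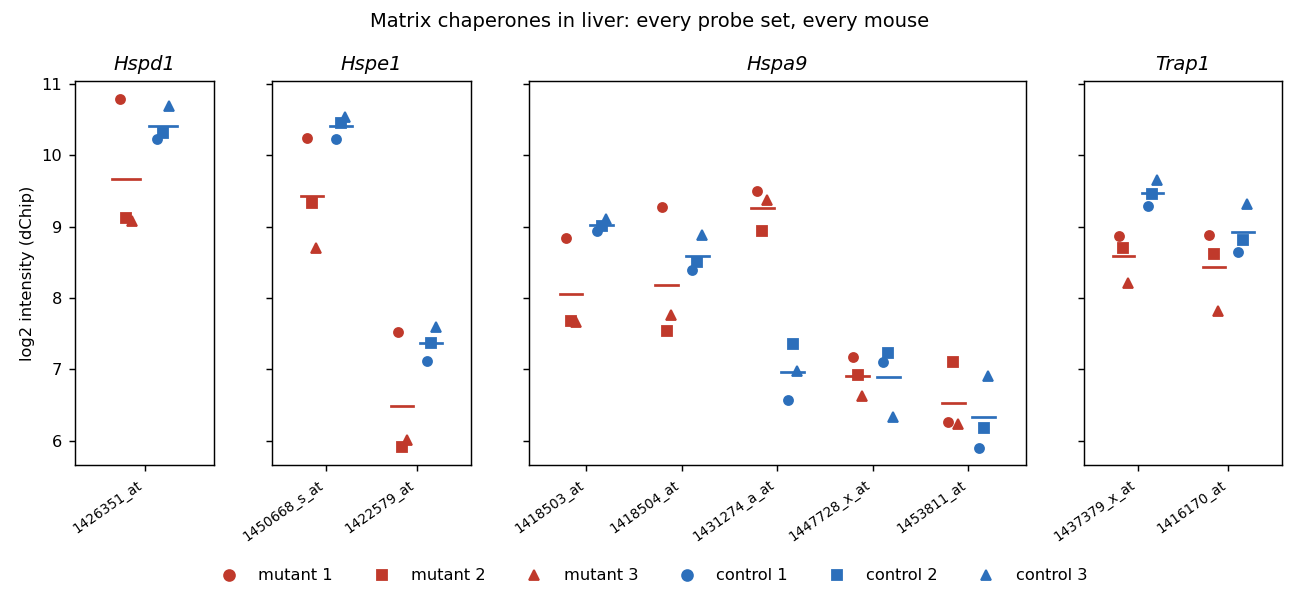
Log2 intensity (vertical axis) of every probe set (horizontal axis) of Hspd1, Hspe1, Hspa9 and Trap1 in each mutant (red, left) and control (blue, right), and the group means as lines. Mutants 2 and 3 sit below the controls for Hspd1 and Hspe1 while mutant 1 does not, and Hspa9 1431274_a_at is the one probe set on which all mutants sit above all controls, at 8.94 to 9.50 in mutants and 6.57 to 7.35 in controls.

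Without mutant 1, limma called 4 chaperone probe sets lower and the same Hspa9 probe set higher, with 5.66% of all probe sets called lower and 2.86% higher in that comparison of 2 mutants with 3 controls. They were Hspd1 1426351_at (-1.31, adjusted p = 0.0234), Hspe1 1450668_s_at (-1.39, adjusted p = 0.0289), Hspe1 1422579_at (-1.40, adjusted p = 0.0199) and Hspa9 1418503_at (-1.35, adjusted p = 0.0145). No protease probe set was called in it. Other measures of the arrays set mutant 1 apart from mutants 2 and 3. The control probe set at the 3' end of Gapdh, a glycolytic gene, read 11.92, 10.45 and 9.84 in mutants 1 to 3, against 11.96, 11.83 and 12.31 in controls 1 to 3. Mutant 1 was thus among the controls and mutants 2 and 3 below them. Its 3' minus 5' signal, a measure used for RNA integrity, was 0.45, -1.06 and -1.78 in mutants 1 to 3, against 2.31, 2.02 and 2.30 in controls 1 to 3 (exact two-sided permutation test, p = 0.1), all mutants being below all controls. That of Actb was 2.60, 3.95 and 4.50 in mutants 1 to 3, against 3.82, 3.90 and 3.11 in controls 1 to 3, with mutant 1 the lowest of the 6. The summed hepatocyte markers were 70619, 56572 and 55957 in mutants 1 to 3. The part of RNA quality and cell content in the chaperone values was not tested.

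**Figure D3:**
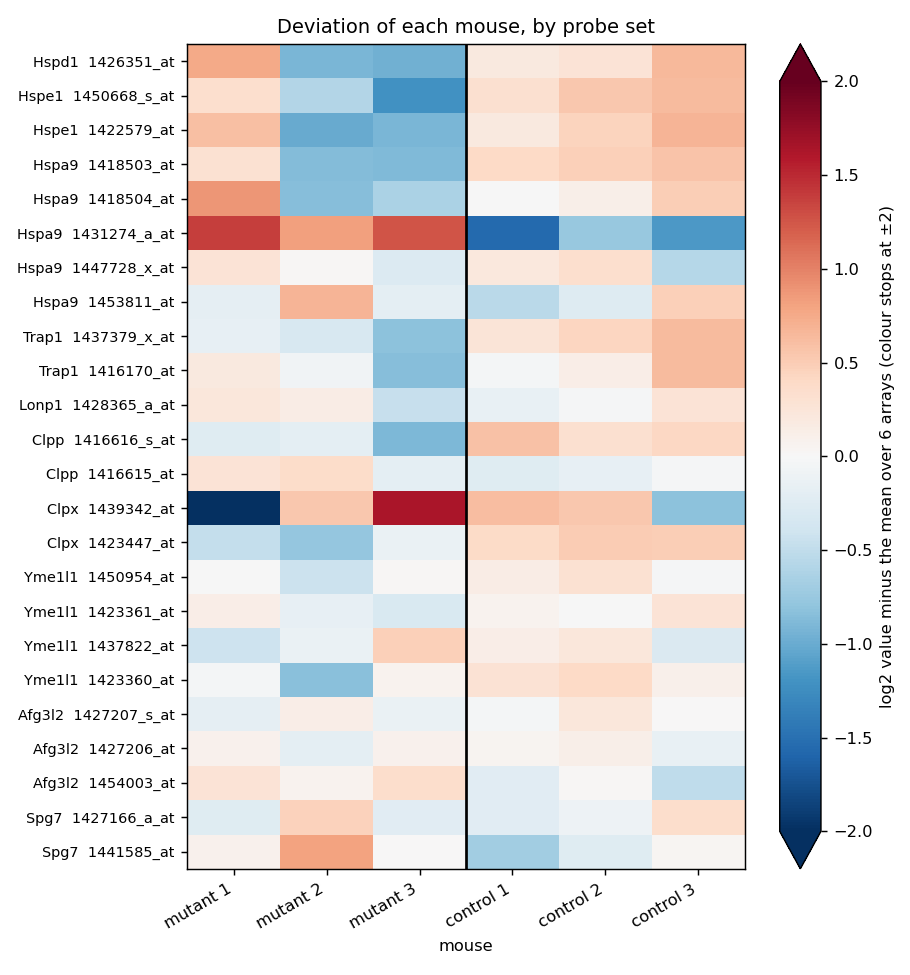
Log2 value of each mouse minus the mean over the 6 arrays (colour) for the 24 probe sets (vertical axis) in mutants 1 to 3 and controls 1 to 3 (horizontal axis). The first 5 rows, Hspd1, Hspe1 and 2 probe sets of Hspa9, are red in mutant 1 and blue in mutants 2 and 3, and Clpx 1439342_at spans the widest range.

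None of the 5 probe sets of the matrix proteases was called higher or lower by limma. Lonp1 encodes an ATP-driven protease that degrades oxidized matrix proteins, and its 1 probe set (1428365_a_at) read 8.49, 8.41 and 7.81 in mutants 1 to 3, against 8.12, 8.24 and 8.54 in controls 1 to 3. The groups overlapped, the difference was -0.07 (standard error 0.25, 95% interval -0.65 to 0.51, adjusted p = 0.899 from limma), and it was 0.05 after quantile normalization, so no direction is given for it. An increase above 0.51 therefore lay outside the interval.

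Clpp encodes the proteolytic chamber of the ClpXP protease, and its probe sets disagreed. On 1416616_s_at it read 8.52, 8.58 and 7.87 in mutants 1 to 3, against 9.36, 9.10 and 9.19 in controls 1 to 3, all mutants being below all controls (difference -0.89, 95% interval -1.46 to -0.33, 53.9% of control, adjusted p = 0.0826 from limma). On 1416615_at it read 8.23, 8.33 and 7.76 in mutants 1 to 3, against 7.71, 7.79 and 7.93 in controls 1 to 3, with mutants 1 and 2 above all controls and mutant 3 among them (difference 0.29, adjusted p = 0.446 from limma). The signal of the first minus the second was 0.30, 0.25 and 0.11 in mutants 1 to 3, against 1.65, 1.31 and 1.26 in controls 1 to 3, an unequal change of -1.19 (exact two-sided permutation test, p = 0.1). Both carry the same RefSeq accession in the array's annotation.

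Clpx encodes the unfoldase that feeds substrates into ClpP, and one of its probe sets was the most variable of all 24. That probe set, 1439342_at, read 7.08, 10.12 and 11.22 in mutants 1 to 3, against 10.20, 10.12 and 8.77 in controls 1 to 3. Its values thus spanned over 4 among mutants alone, with mutant 1 and control 3 low and mutant 3 high, and the difference of -0.22 had a 95% interval of -2.46 to 2.02. Without mutant 1 the difference was 0.98 (adjusted p = 0.296 from limma). On the steadier 1423447_at Clpx read 8.29, 7.998 and 8.64 in mutants 1 to 3, against 9.15, 9.28 and 9.26 in controls 1 to 3, with all mutants below all controls. Here the difference was -0.92 (standard error 0.22, 95% interval -1.44 to -0.41, adjusted p = 0.0662 from limma), the smallest adjusted p among the members with a negative difference.

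The inner membrane proteases had the median difference nearest to 0, -0.05 over 9 probe sets, against -0.22 over the 5 of the matrix proteases and -0.61 over the 10 of the matrix chaperones. These medians were not tested against each other. None of the 9 passed the test in limma, before or after adjustment. Yme1l1 is the protease whose active site faces the intermembrane space, where it trims the fusion factor OPA1. Its brightest probe set (1450954_at) read 7.87, 7.45 and 7.91 in mutants 1 to 3, against 8.03, 8.19 and 7.86 in controls 1 to 3 (difference -0.28, 95% interval -0.78 to 0.21, adjusted p = 0.454). The other probe sets of Yme1l1 differed by -0.23, -0.05 and -0.53, and on the last, 1423360_at, all mutants lay below all controls at 5.49, 4.70 and 5.61 in mutants 1 to 3, against 5.82, 5.93 and 5.64 in controls 1 to 3. All 4 were negative as deposited, but that of 1437822_at turned positive without mutant 1, mutant 2, control 1 or control 2.

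Afg3l2 and Spg7, which encodes paraplegin, form the protease that faces the matrix and also matures ribosomal and channel proteins of mitochondria. The brightest probe set of Afg3l2 (1427207_s_at) read 8.85, 9.16 and 8.91 in mutants 1 to 3, against 8.99, 9.26 and 9.04 in controls 1 to 3 (difference -0.12, 95% interval -0.58 to 0.33, adjusted p = 0.745 from limma). This was among the narrowest intervals of the members, and the groups overlapped. Probe set 1427206_at, whose sign turned without mutant 2, control 1 or control 2, differed by -0.01. On the dim 1454003_at Afg3l2 read 5.69, 5.49 and 5.77 in mutants 1 to 3, against 5.19, 5.45 and 4.92 in controls 1 to 3, with all mutants above all controls (difference 0.47, adjusted p = 0.222 from limma). Spg7 on its brighter probe set (1427166_a_at) read 6.88, 7.59 and 6.90 in mutants 1 to 3, against 6.90, 7.02 and 7.48 in controls 1 to 3, with a difference of -0.01 (95% interval -0.64 to 0.62). On the dim 1441585_at it read 5.62, 6.35 and 5.56 in mutants 1 to 3, against 4.85, 5.30 and 5.58 in controls 1 to 3 (difference 0.60, 95% interval -0.08 to 1.29, adjusted p = 0.248 from limma). The dim probe sets of Afg3l2 and Spg7 thus read higher in mutants by values that did not pass the test, while their bright ones differed by less than the spread between mice.

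**Figure D4:**
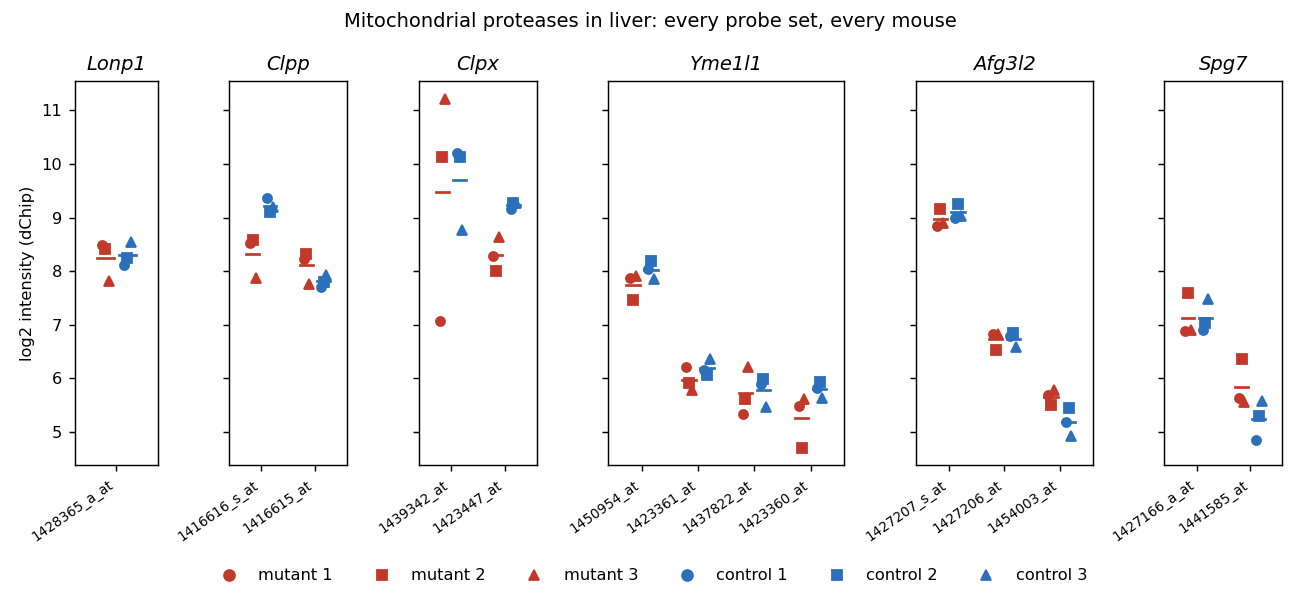
Log2 intensity (vertical axis) of every probe set (horizontal axis) of Lonp1, Clpp, Clpx, Yme1l1, Afg3l2 and Spg7 in each mutant (red, left) and control (blue, right), and the group means as lines. Mutants sit below the controls for Clpp 1416616_s_at and Clpx 1423447_at, and Clpx 1439342_at ranges from 7.08 to 11.22 among mutants.

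Of the 8 genes with more than 1 probe set, 4 had differences of both signs (Hspa9, Clpp, Afg3l2 and Spg7). Hspe1, Trap1, Clpx and Yme1l1 were negative on every probe set as deposited, as were Hspd1 and Lonp1 on their single ones. Among the 24 pairs of probe sets of 1 gene, the within-array difference separated the groups at the smallest exact permutation p of 0.1 in 11 pairs, with an adjusted p of 0.218 over the 24 pairs. When the probe sets of each gene were averaged, limma called 0 of the 10 genes, and 2 of them had p under 0.05 before adjustment. With the brightest probe set in place of the average it also called 0 of 10, and 4 had p under 0.05 before adjustment. The smallest adjusted p values on that scale were 0.054 for Trap1 and 0.055 for Clpp.

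The other genes of the pathway gave no called rise in the fit of all 6 mice and all probe sets without covariates. Of 94 probe sets of 47 related genes, limma called 0 higher and 2 lower. Before adjustment 8 were higher and 23 lower at p under 0.05 (15.7% and 9.54% of all probe sets). Without mutant 1 the number called was 23, 1 of them higher (5.66% of all probe sets were then called lower and 2.86% higher), and without any 1 of the other mice it was 0. A few genes stand in more than 1 of the lists that follow. Further mammalian genes of the mitochondrial unfolded protein response formed the first list. Dnaja3 encodes a cochaperone of mortalin, Pmpcb a subunit of the mitochondrial processing peptidase and Ndufb2 a subunit of complex I. Txn2 encodes the mitochondrial thioredoxin, Endog a nuclease and Timm17a a part of the import channel. The 14 probe sets of this list had a median difference of -0.82 with none called by limma, and 9 lower and 0 higher at p under 0.05 before adjustment. All mutants lay below all controls on 9 of them (10.7% of all probe sets). Without mutant 1, 8 were called lower (5.66% of all probe sets). Dnaja3, named like the next genes after its values were seen, read 7.95, 6.70 and 6.63 in mutants 1 to 3, against 8.57, 8.64 and 8.77 in controls 1 to 3 on its brightest probe set (difference -1.57, adjusted p = 0.0609), but 0.49 and 0.16 on the others.

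Among cochaperones and other chaperones, 1 of 15 probe sets was lower and 0 were higher (0.746% and 1.25% of all probe sets). It was Clpb, a disaggregase of the intermembrane space, which fell to 7.24, 7.08 and 6.50 in mutants 1 to 3, against 8.34, 8.36 and 8.51 in controls 1 to 3, on 1416541_at (difference -1.46, standard error 0.24, adjusted p = 0.0391 from limma). Its dimmer probe set differed by 0.59 in the opposite direction. Before adjustment 2 of the 15 were higher and 3 lower at p under 0.05 (15.7% and 9.54% of all probe sets). Of the 20 probe sets of other mitochondrial proteases, limma called 0, with 1 higher and 4 lower at p under 0.05 before adjustment (again 15.7% and 9.54% of all). None of the 7 probe sets of the scaffolds Phb2, Stoml2 and Maip1, which hold the membrane proteases, was called either. Before adjustment 2 of the 7 were lower (9.54% of all probe sets). The median difference was -0.23 for the proteases, -0.79 for the scaffolds and 0.005 for the cochaperones.

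Among 25 probe sets of factors that signal this stress, 1 was lower and 0 were higher (0.746% and 1.25% of all probe sets), with a median difference of 0.07. Before adjustment 2 were higher and 6 lower at p under 0.05 (15.7% and 9.54% of all probe sets). Eif2ak1, the kinase that relays mitochondrial stress to translation, fell to 7.11, 6.76 and 6.49 in mutants 1 to 3, against 7.87, 8.07 and 8.11 in controls 1 to 3, on 1421901_at (difference -1.23, adjusted p = 0.0464 from limma). Its other 4 probe sets lay between -0.39 and 0.44. Atf5 and Ddit3 were chosen after their values were seen. Atf5 read 8.23, 7.17 and 7.89 in mutants 1 to 3, against 9.34, 8.93 and 9.68 in controls 1 to 3 (difference -1.55, adjusted p = 0.0545 from limma), all mutants being below all controls. Ddit3 read 7.26, 7.98 and 8.26 in mutants 1 to 3, against 6.56, 6.77 and 6.42 in controls 1 to 3 on 1443897_at (difference 1.25, adjusted p = 0.0614), with all mutants above all controls, and differed by 0.39 on 1417516_at with overlap. Probe set 1443897_at was called higher by limma under 3 alternatives and no other. These were the probe sets brighter than the median one (adjusted p = 0.0356), age as a covariate (adjusted p = 0.0423) and leaving out mutant 1 (adjusted p = 0.0148). Over all probe sets tested in each, 1587 of 22518, 1392 of 45037 and 1289 of 45037 were called higher, in that order. As deposited, 561 of 45037 were. Of the signalling probe sets, 3, 3 and 5 were called lower under these alternatives, against 1 as deposited. The counts called lower over all probe sets tested were 1463, 1123 and 2551, against 336 as deposited. The 3 probe sets of Atf4 differed by 0.30, 0.68 and -0.85, from the brightest to the dimmest on average, with overlap of the groups on each. Their adjusted p values from limma were 0.55, 0.735 and 0.154. On the second, 1439258_at, mutant 2 (10.272) and control 3 (9.235) stood far above the other mice (standard error 1.05).

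**Figure D5:**
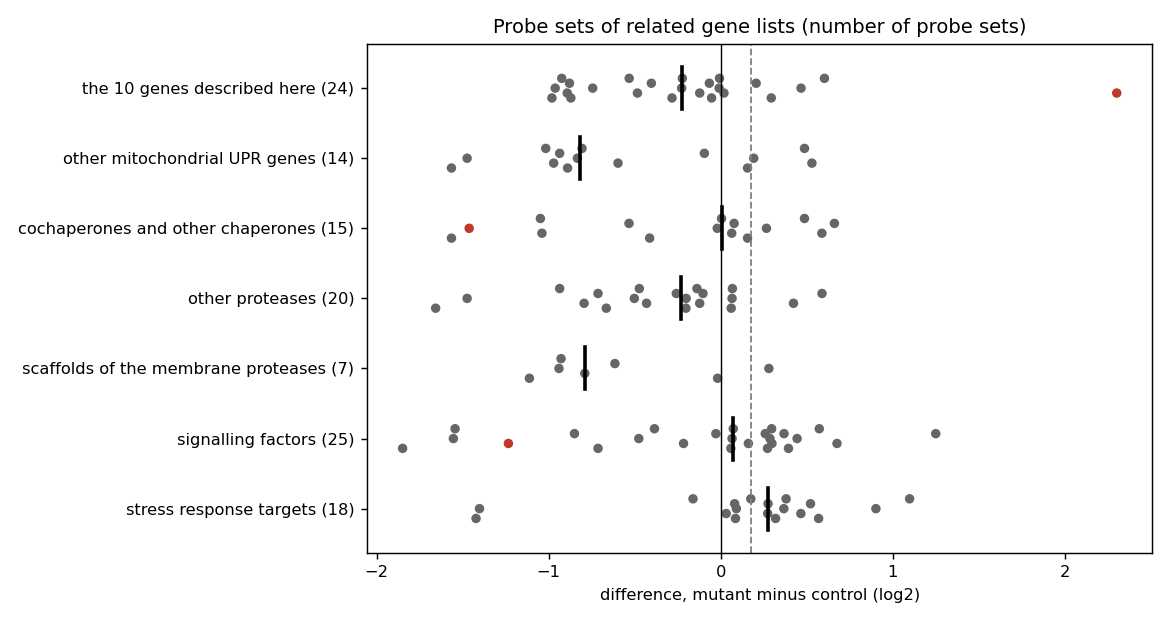
Difference of each probe set (points, horizontal axis, log2, mutant minus control) in the 10 genes and in 6 related gene lists (vertical axis, number of probe sets in brackets), with a bar at each list's median. Red points passed the adjusted p, and the dashed line is the median of all probe sets. One red point lies above 0, that of Hspa9, and the 2 others, Clpb and Eif2ak1, lie below 0.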

How the data were processed

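Groups were taken from the sample titles. Per the study's methods, the authors ran dChip on the scanned arrays, using perfect-match probes alone, and their deposited log2 values, 1 per probe set and array, were used as they stand (0 to 14.63, with 40 values of exactly 0). The sources used here give neither the dChip version nor the baseline array, the methods name a C. elegans array although the probe sets are those of a mouse array, and no detection calls or background values were used, so signal over background is unknown. Of 45101 probe sets, 64 AFFX controls were left out. Symbols came from the platform annotation: 34945 probe sets had 1 symbol, 932 several and 9160 none. No probe set of exactly 1 symbol was found for Dnajc19, Immp2l, Phb, Hsf1, Gdf15, Serpina1a, Spp1 and Hbb-bt, which were not analysed here. All 45037 probe sets entered 1 limma fit (version 3.58.1, R 4.3.3; lmFit, then eBayes), with Benjamini-Hochberg adjustment over all of them. Intervals are 95% and come from that fit. Single values were set against all 20 assignments of mice to groups in an exact two-sided permutation test. The script was tested on simulated data. The genes and lists were chosen with earlier results of these data known, and related genes were to be named where they passed the adjusted p. Alternatives were another normalization, centring, a filter on dim probe sets, other probe set choices, another variance model, age as a covariate, the replicate number as a block, leaving out each mouse and, chosen after seeing the data, a block for the concurrent pair of mice. The replicate numbers of the labels are not tied to shared animals or days, and control 1 is labelled as the concurrent control of mutant 3. Figures were drawn with matplotlib 3.10.9. The number of arrays limits the precision.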

Additional observations from a re-analysis of the deposited data

Results flagged for a closer look

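Several control probe sets outside the comparison read higher on every mutant array than on every control array. The spiked-in bacterial transcripts, added to report on hybridization, differed by 1.76 for BioB, 1.71 for BioC and 1.29 for BioD, and the spiked-in phage transcript Cre, which the labels do not tie to the transgene, by 0.52 (mutant minus control, log2, mean of 4 to 6 probe sets each). BioB averaged 10.42, 11.03 and 10.67 in mutants 1 to 3, against 9.15, 8.94 and 8.74 in controls 1 to 3. The control probe set at the 5' end of Gapdh differed by 1.71, with 11.46, 11.51 and 11.61 in mutants 1 to 3, against 9.64, 9.81 and 10.01 in controls 1 to 3. Each of these 5 had an exact two-sided permutation p of 0.1, the smallest possible. Their part in the chaperone and protease values was not tested.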

How the results depend on the processing

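Results for single probe sets of the 10 genes numbered 341 over 15 alternatives, of which 304 kept both direction and side of the threshold, 24 changed direction, 6 lost the call of Hspa9 1431274_a_at and 7 gained a call. The member count called higher, 1 as deposited, was 0 with the brightest probe set of each gene, 0 with gene means and 0 with the replicate block. That called lower, 0 as deposited, was 3 of 19 among the probe sets brighter than the median one. Fewer probe sets, 22518, were tested there, and 1463 of them were called lower. The 3 were Clpp 1416616_s_at (adjusted p = 0.0484 from limma), Clpx 1423447_at (0.0368) and Trap1 1437379_x_at (0.0475). The member median was -0.39 after centring and -0.51 with the brightest probe sets. Over all 45037 probe sets, 561 higher and 336 lower became 150 and 150 after centring. They became 864 and 549 with trended robust variances and 1392 and 1123 with age as a covariate. Other alternatives tested fewer features. The counts were 1587 and 1463 among the 22518 brighter probe sets and 735 and 588 among the 34945 with 1 gene symbol. Over 18193 genes they were 895 and 748 with the brightest probe sets and 309 and 193 with gene means. The 2 calls among related genes became 1 after quantile normalization, 10 among those brighter probe sets, 8 with the brightest probe sets, 1 with gene means and 7 with age. With the replicate block, 0 of all and 0 of the related probe sets were called, while 7935 of all and 5 member probe sets had p under 0.05 before adjustment, and Hspa9 1431274_a_at kept its difference of 2.30 (adjusted p = 0.182). Deviations from the group means correlated across probe sets at 0.061, -0.503 and -0.56 for mice of the same number 1, 2 and 3. Because deviations within a group sum to 0, positive and negative correlations offset each other. These values therefore cannot decide which mice pair. Off these numbers, mutant 3 and control 1, labelled as concurrent, correlated at 0.453, and mutant 3 and control 2 at 0.401. Mutant 2 correlated with control 3 at 0.617 and with control 1 at -0.448. Mutant 1 correlated with control 2 at 0.17 and with control 3 at -0.144. A block for the concurrent pair, chosen after seeing the data, left 247 higher and 104 lower of all probe sets, 1 call among related genes and the call of Hspa9 1431274_a_at (adjusted p = 0.0399). Without single mice, all probe sets called ranged from 0 to 1289 higher and from 0 to 2551 lower, related ones from 0 to 23, members from 0 to 1 higher and from 0 to 4 lower, and the member median from -0.27 to -0.15. Directions that changed were those of small differences. Quantile normalization gave 0.056 for Afg3l2 1427207_s_at, -0.023 for Hspa9 1447728_x_at and 0.047 for Lonp1. Centring gave -0.14 for Hspa9 1447728_x_at, and age gave -0.01 for it and 0.029 for Spg7 1427166_a_at. Without single mice, ranges were -0.085 to 0.087 for Afg3l2 1427206_at, -1.10 to 0.98 for Clpx 1439342_at, -0.26 to 0.19 for Hspa9 1447728_x_at, -0.08 to 0.50 for Hspa9 1453811_at, -0.19 to 0.15 for Lonp1, -0.24 to 0.16 for Spg7 1427166_a_at and -0.30 to 0.14 for Yme1l1 1437822_at. The cause of these changes was not tested. With 3 mice a group the precision is limited. Of the 24 probe sets, 5 lay under the median signal of the array, and signal over background is unknown. The largest standard errors were nonetheless those of bright probe sets, Clpx 1439342_at (0.966) and Hspd1 1426351_at (0.453).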

Other observations

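The secreted and metabolic targets of the integrated stress response, which often moves with the mitochondrial unfolded protein response, were read by 18 probe sets of 9 genes. The median difference of these probe sets was 0.27, and that of all probe sets was 0.17. Limma called 0 of them, with 3 higher and 2 lower at p under 0.05 before adjustment (15.7% and 9.54% of all probe sets). The 3 were probe sets of Phgdh, the first enzyme of serine synthesis, named after its values were seen. Its brightest, 1426658_x_at, read 9.30, 10.38 and 9.56 in mutants 1 to 3, against 8.23, 8.67 and 9.04 in controls 1 to 3 (difference 1.10, adjusted p = 0.102 from limma). All 4 probe sets of Phgdh had every mutant above every control, as did 21.2% of all probe sets. The 2 were both probe sets of Asns, asparagine synthetase, at -1.42 and -1.40 with overlap of the groups. Fgf21, a hormone that liver releases under mitochondrial stress, read 5.36, 6.25 and 5.49 in mutants 1 to 3, against 5.42, 5.05 and 6.34 in controls 1 to 3 (difference 0.09), so that mutant 2 and control 3 were high and the groups overlapped.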
